A study of Danio rerio with 2 samples.

Results

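The genes described are the enzymes that build phosphatidate and triglyceride from glycerol 3-phosphate, in liver of Danio rerio (zebrafish) kept on a high-fat diet. They were chosen by name, as 10 gene symbols (gpd1b, gpam, agpat2, agpat3, lpin1, lpin2, dgat1a, dgat1b, dgat2 and mogat2). Of the 25939 table rows, 11 match these symbols, counting rows named gpd1 or dgat1 without the a or b letter. Poly(A) RNA was sequenced from livers of the genotype labelled ambp ko and from livers labelled WT, all on the high-fat diet, with 1 library per genotype. The ambp allele, and the strain, sex and age of the fish, are not given in the sources used here, nor is the number of fish behind each library. The comparison asks how loss of ambp, which encodes the precursor of alpha-1-microglobulin and bikunin, alters liver expression on this diet. There were no replicates, so no difference has a replicate check and no p-value is given. All values describe these 2 libraries, and every interval is a 95% interval that covers counting error only.

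Liver cells make triglyceride by adding acyl chains to glycerol 3-phosphate. A glycerol-3-phosphate acyltransferase makes lysophosphatidate, an acylglycerolphosphate acyltransferase (AGPAT) turns that into phosphatidate, a lipin removes the phosphate to give diacylglycerol, and a diacylglycerol acyltransferase (DGAT) adds the last chain. Phosphatidate and diacylglycerol are also the branch points to the phospholipids, and a separate route through monoacylglycerol serves mainly the intestine in mice.

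The knockout library held 18357830 reads and the WT library 15659846. The targeted gene checked the labels, since ambp had 3085 reads in the knockout and 50280 in WT, a level 22.8-fold lower (22.0 to 23.6). Of the hepatocyte list, 12 of 12 rows were measured and none was past 2-fold, where 11.8% of all genes were. Of these 12, 5 were above 0, where 49.8% of all genes were. The most abundant were tfa, at 52752 CPM in the knockout and 46803 CPM in WT, and apoa2, at 44796 and 59365 CPM. The widest differences, named after their values were seen, were fabp10a, 1.52-fold lower in the knockout, and fga (ENSDARG00000020741), 1.58-fold higher. Levels are read counts scaled to a common library size (CPM) with library sizes scaled by TMM, a method that centres most genes on no change. The log2 ratio, knockout over WT, has 1 CPM added to each level, so ratios of low genes come out too small, while folds have nothing added. A gene was measured if it reached 1 CPM in either library and was called if its log2 ratio reached 2-fold in size. Counts of genes at least 2-fold higher or lower use this log2 ratio, so a low gene can have a fold past 2 and not be called.

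The lipin genes were lower in the knockout library, whereas glycerol-3-phosphate supply, the AGPAT step and most of the DGAT step were higher. The only called member was lpin1, at 4.15-fold lower. Of the other members, gpd1, agpat3, dgat2 and a dgat1 gene lay between 0.80 and 0.99 on the log2 scale, just short of the 2-fold rule. Of the 11 rows, 9 were measured, and all 9 reached 1 CPM in each library, so none entered through its higher side alone. Among these 9, 0 were at least 2-fold higher, where 5.4% of all 11634 measured genes were, and 1 was at least 2-fold lower, where 6.4% of all genes were. Log2 ratios above 0 were seen in 5 of the 9 and in 49.8% of all genes. The median was 0.53 for the members and -0.0026 for all genes, but without the gpd1 rows the members' median was 0.099, since it then falls between a higher and a lower cluster of genes. In bulk liver, fewer cells of a type and less RNA per cell cannot be told apart.

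**Figure D1:**
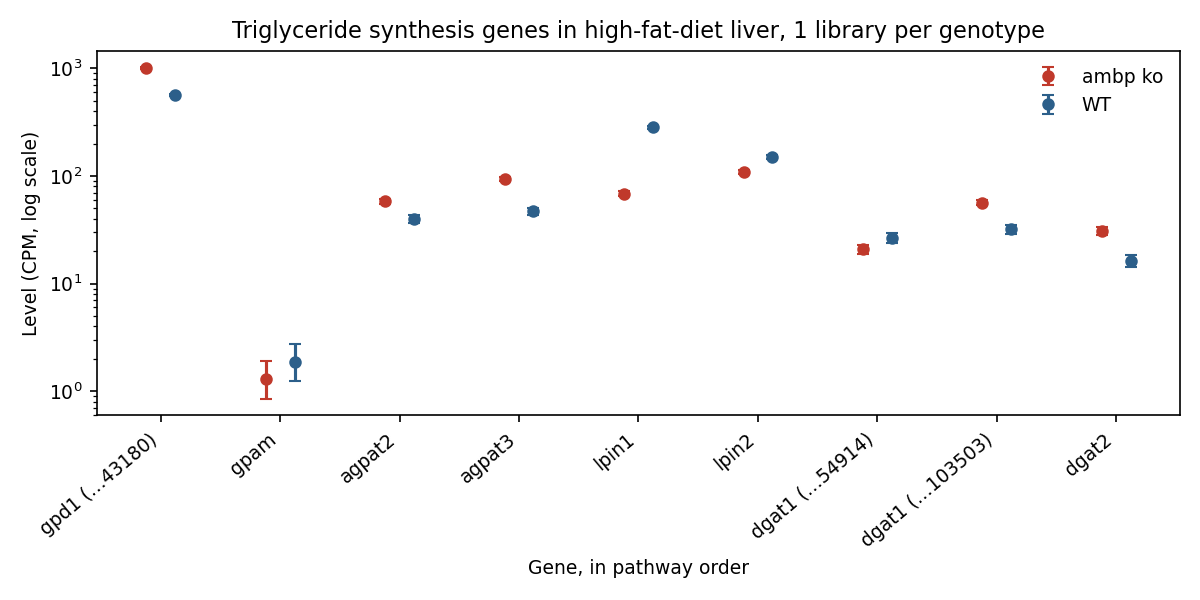
Level of each measured member in CPM (log axis) in the ambp ko library (red, left of each pair) and the WT library (blue), with 95% counting intervals, in pathway order. The point for lpin1 is at 68.5 CPM in the knockout and 284.2 CPM in WT, the widest gap, while agpat3, at 94.0 and 47.0 CPM, has the widest gap in the other direction among these 9 genes.

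The names need care at several of the steps. The name table gives dgat1 for 2 identifiers and gpd1 for 2 identifiers and does not tell the a and b copies apart, so these genes are given by identifier. Both gpd1 rows were kept, although the list names only gpd1b. Reads that such copies share could have been split between them. The identifier of agpat2 (ENSDARG00000101139) is called AGPAT1 in the authors' deposited table. In the other direction, 5 rows have a member's or a gpd1 symbol in that table while their identifier carries another name, and these were kept out of the members. Among them zgc:123305, called Lpin2 there and named after its values were seen, had 72 reads in the knockout and 83 in WT (log2 ratio -0.56). It is not counted in the lipin sums below.

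Supply of glycerol 3-phosphate was the most abundant part of the pathway. The cytosolic glycerol-3-phosphate dehydrogenase gpd1 (ENSDARG00000043180), which reduces dihydroxyacetone phosphate, had 20256 reads in the knockout and 8138 in WT. These are levels of 1011 CPM (997 to 1025) in the knockout and 567 CPM (555 to 580) in WT, a fold of 1.78 (1.74 to 1.83). The other row of that name, ENSDARG00000043701, had 1 read in each library and was not measured. Per unit length, gpd1 was first of the 11 rows in both libraries, at 794 FPKM in the knockout and 374 FPKM in WT. Glycerol can also enter through glycerol kinase, and the kinase gene gk3 (named Gk in the deposited table) had 1463 reads in the knockout and 813 in WT, a log2 ratio of 0.36. The related gene gk5, chosen here after its values were seen, had 1098 reads in the knockout and 418 in WT (0.89). The paralog gpd1c, also chosen after its values were seen, had 322 and 215 reads (0.09), so the higher level of the abundant gpd1 row was not shared by every gene of the family.

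The mitochondrial acyltransferase gene gpam, which in mammals starts the pathway, was barely expressed. It had 26 reads in the knockout and 27 in WT, which is 1.30 CPM (0.85 to 1.90) and 1.88 CPM (1.24 to 2.74). Its fold of 0.69 (0.39 to 1.23) was not distinguishable from no change at this depth. Most of the length-scaled signal of this step came from gpat3 (ENSDARG00000016048), an acyltransferase of the endoplasmic reticulum in mammals, at 24.6 FPKM in the knockout and 20.7 FPKM in WT against 0.30 and 0.36 FPKM for gpam. With 1191 reads in the knockout and 853 in WT, gpat3 had a log2 ratio of -0.0012. A second gpat3 row (ENSDARG00000006491) had 206 reads in the knockout and 94 in WT (0.58), and gpat4 had 51 and 59 (-0.53), both named after their values were seen. Summed over the 5 rows of the step, the level was 30.8 FPKM in the knockout and 25.4 FPKM in WT, without TMM scaling. In CPM, with TMM but no length scaling, the same rows summed to 73.5 CPM in the knockout and 72.5 CPM in WT. By that measure the step was nearly level.

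The AGPAT step, which makes phosphatidate, was higher through both of its listed genes. Reads of agpat3, an enzyme that in mice favours polyunsaturated acyl chains, numbered 1884 in the knockout and 674 in WT, or 94.0 CPM (89.8 to 98.3) and 47.0 CPM (43.5 to 50.7). The fold was 2.0 (1.83 to 2.19), and the log2 ratio with its pseudocount was 0.99, under the rule, so the gene sits on the edge of a call. By log2 ratio it was 662 from the highest of all 11634 genes. The gene agpat2, whose human counterpart is lost in a congenital lipodystrophy, had 1166 reads in the knockout and 575 in WT, or 58.2 CPM (54.9 to 61.6) and 40.1 CPM (36.9 to 43.5), a fold of 1.45 (1.31 to 1.61). Reads of agpat3 per read of agpat2 were 1.62 in the knockout and 1.17 in WT, so agpat3 differed more, with a ratio of these ratios of 1.38 (1.204 to 1.58) that does not depend on library scaling. Together these 2 genes gave 66.2 FPKM in the knockout and 29.9 FPKM in WT, without TMM scaling. In CPM, with TMM but no length scaling, they summed to 152 CPM in the knockout and 87.1 CPM in WT. Of the low paralogs, agpat5 was at -0.06 on the log2 scale and lclat1, an acyltransferase of lysophospholipids, at 0.96 on 177 reads in the knockout and 58 in WT; these were picked after their values were seen.

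The lipins, which dephosphorylate phosphatidate, were lower. In mammals lpin1 is induced in fasted liver and also acts in the nucleus as a coactivator beside PPARGC1A, and lpin2 is the main lipin of mouse liver. Reads of lpin1 (ENSDARG00000020239) numbered 1372 in the knockout and 4076 in WT, or 68.5 CPM (64.9 to 72.2) and 284.2 CPM (275.5 to 293.0). The knockout level was 24.1% of that in WT, 4.15-fold lower (3.90 to 4.42), and the log2 ratio of -2.04 was 89 from the lowest of all genes. Reads of lpin2 (ENSDARG00000061214) numbered 2169 in the knockout and 2153 in WT, or 108.2 CPM (103.7 to 112.9) and 150.1 CPM (143.8 to 156.6), which is 1.39-fold lower (1.31 to 1.47). The raw reads of lpin2 were nearly equal, from a deeper knockout library, so the size of its fold rests on the scaling. Its log2 ratio was -0.22 with library totals, against -0.47 with TMM.

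The order of the lipins was opposite in the libraries. Reads of lpin1 made up 38.7% (37.1 to 40.4, exact Clopper-Pearson) of the 3541 lipin reads in the knockout and 65.4% (64.2 to 66.6) of the 6229 in WT. Per unit length, lpin1 stood at 18.8 FPKM and lpin2 at 24.7 FPKM in the knockout, and at 58.1 and 28.5 FPKM in WT. The ratio of lpin1 to lpin2 was 2.99-fold lower in the knockout (2.75 to 3.26), a value free of library scaling. The 2 genes together gave 43.5 FPKM in the knockout and 86.6 FPKM in WT. With the plpp phosphatases and lpin1b added, which makes 8 rows, the sums were closer, at 88.0 FPKM in the knockout and 103 FPKM in WT. In CPM, which are TMM-scaled but not scaled by length, the sums of the 8 rows stayed further apart. They were 247 CPM in the knockout and 464 CPM in WT. The 2 lipins alone summed to 177 CPM in the knockout and 434 CPM in WT. In the length-scaled order of the 11 rows lpin1 was number 7 in the knockout and number 2 in WT, and lpin2 was number 3 in both. The gene length implied by reads and FPKM differed for lpin1, at 3967 bases in the knockout and 4481 in WT. The deposited FPKM also lack the TMM scaling, so for both reasons the FPKM ratio of lpin1 is smaller in size than its CPM ratio. Its log2 ratio was -1.57 on FPKM with a pseudocount of 1, against -1.79 on CPM with library totals and -2.04 with TMM. The row named lpin1b, called LPIN1 in the deposited table, had 0 reads in both libraries. The upper limit of its interval was 0.18 CPM in the knockout and 0.26 CPM in WT. Genes of the phosphatase that acts on lipins differed little, with cnep1r1, its regulatory subunit, at 187 reads in the knockout and 164 in WT (-0.27) and the ctdnep1 genes, chosen after their values were seen, at 0.13 and -0.23.

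**Figure D2:**
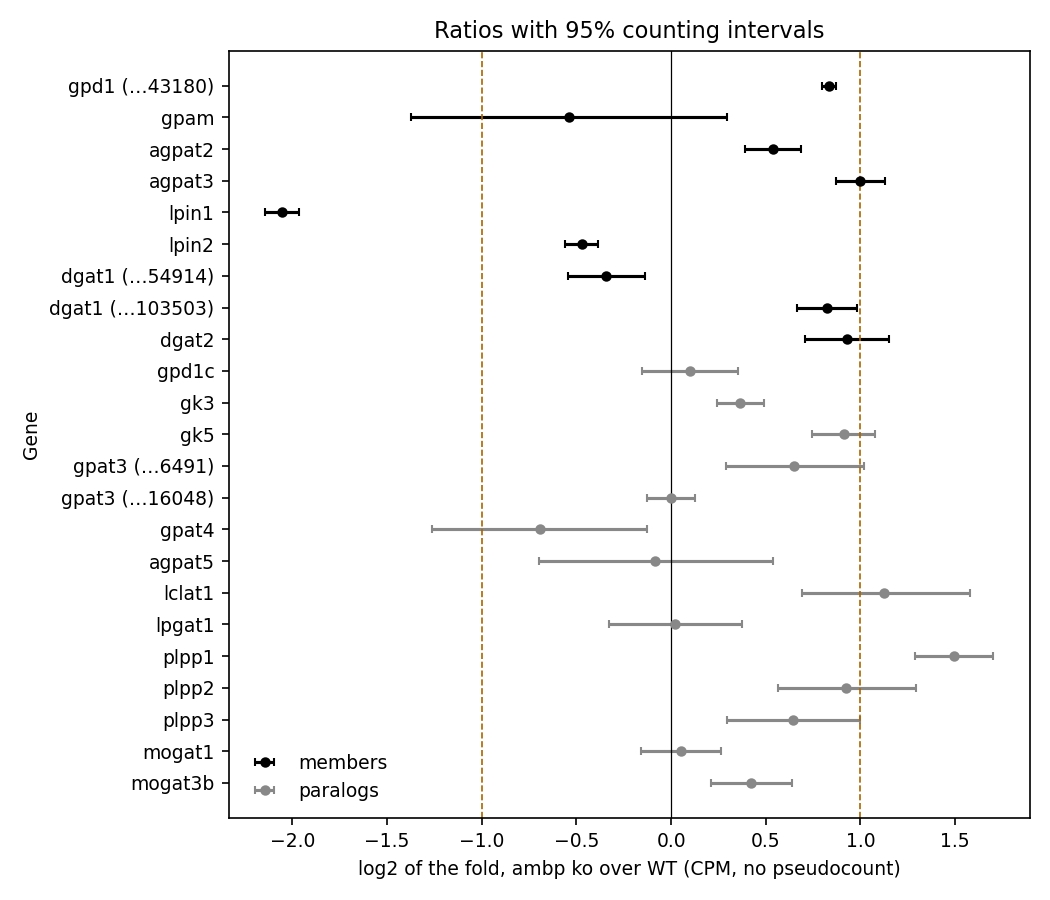
Log2 of the fold, ambp ko over WT, from CPM without pseudocount, for the 9 measured members (black) and the 14 measured paralogs of the same steps (grey), with 95% counting intervals. Dashed lines mark 2-fold. The interval of lpin1, from 3.90 to 4.42-fold lower, lies left of the lower line, and the point of agpat3, at 2.0-fold, lies on the upper line.

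The final acylation differed between its genes. DGAT1 and DGAT2 are unrelated in sequence and catalyse the same reaction, DGAT2 being tied to newly made fatty acids in mammals. Reads of dgat2 (ENSDARG00000018846) numbered 617 in the knockout and 232 in WT, or 30.8 CPM (28.4 to 33.3) and 16.2 CPM (14.2 to 18.4), a fold of 1.90 (1.63 to 2.22). The dgat1 gene ENSDARG00000103503 had 1133 reads in the knockout and 459 in WT, or 56.5 CPM (53.3 to 59.9) and 32.0 CPM (29.1 to 35.1), a fold of 1.77 (1.58 to 1.97). The other dgat1 gene, ENSDARG00000054914, had 420 reads in the knockout and 381 in WT, or 21.0 CPM (19.0 to 23.1) and 26.6 CPM (24.0 to 29.4), which is 1.27-fold lower (1.101 to 1.46). This fold rests on the scaling, since the raw reads were higher in the knockout. With library totals the log2 ratio of this gene was -0.085, against -0.33 with TMM. The log2 ratios of the copies had opposite signs, here and under the other scalings tried. With library totals ENSDARG00000054914 was close to no change, and no interval was computed for that setting. Reads of ENSDARG00000103503 per read of ENSDARG00000054914 were 2.70 in the knockout and 1.205 in WT, and the ratio of these ratios was 2.24 (1.87 to 2.68).

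Per unit length, the DGAT genes had a different order in each library. In the knockout, dgat1 ENSDARG00000103503 was at 22.6 FPKM, dgat2 at 19.8 FPKM and dgat1 ENSDARG00000054914 at 10.9 FPKM. In WT they were at 10.7, 9.10 and 15.8 FPKM in the same order of genes. The share of dgat2 in the summed FPKM of the 3 genes was 37.1% in the knockout and 25.5% in WT. The implied length of ENSDARG00000054914 was 2101 bases in the knockout and 1536 in WT, so its FPKM is uncertain. Among the 9 measured members it and lpin1 were the 2 whose implied length differed by more than 5%.

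**Figure D3:**
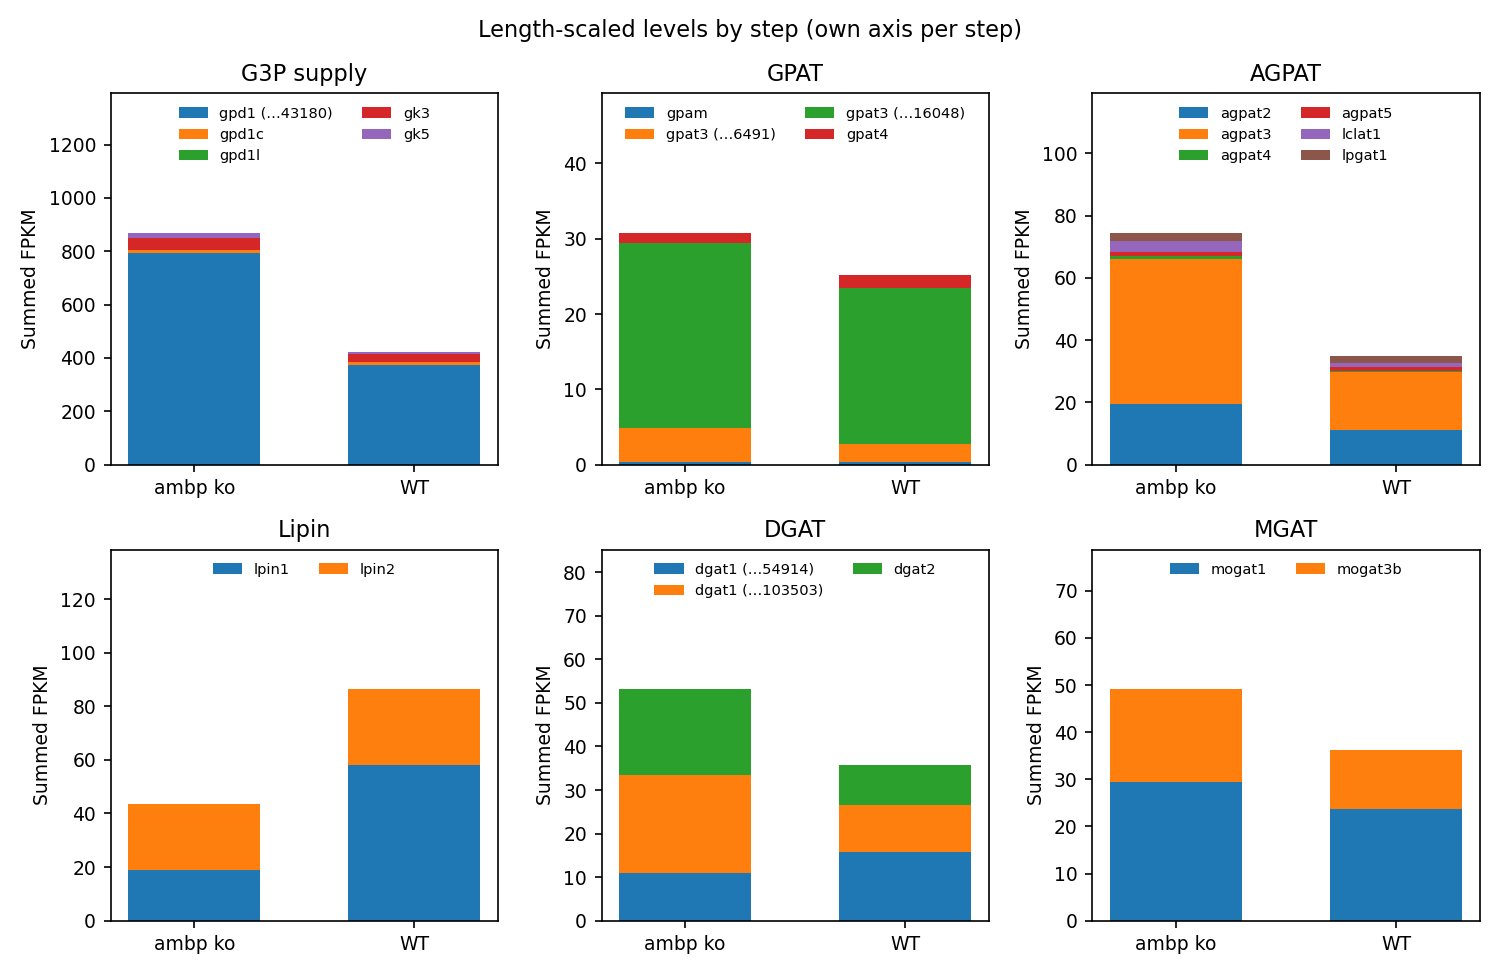
Summed FPKM of the genes at each step, stacked by gene, in the ambp ko library (left bar) and the WT library (right bar). Each panel has its own axis from 0, rows under 0.2 FPKM in both libraries are left out, and the lipin panel leaves out the plpp genes. The lipin bar is lower in the knockout, at 43.5 against 86.6 FPKM, and the AGPAT and DGAT bars are higher. The FPKM are as deposited, scaled by length and without TMM scaling, so gaps between the bars differ in size from those in CPM.

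The monoacylglycerol route had almost no reads from its listed gene. The gene mogat2, an intestinal enzyme in mice, had 1 read in the knockout and 0 in WT, too few for a fold. In RefSeq's gene order for GRCz12tu, which is another build than the submitters', dgat2 and mogat2 are adjacent protein-coding genes, so these neighbours had 617 reads and 1 read in the knockout library and 232 and 0 in WT. The related genes mogat1 and mogat3b, named after their values were seen, had 456 and 523 reads in the knockout and 315 and 279 in WT, with log2 ratios of 0.05 and 0.41. The deposited table calls mogat3b dgat2, and at 19.9 FPKM in the knockout and 12.4 FPKM in WT it stood beside 19.8 and 9.10 FPKM for the dgat2 row kept here. Intestine genes, picked here after their values were seen, spanned a wide range. The transcription factor genes cdx1b and cdx4 had 0 reads in both libraries and vil1 had 8 reads in the knockout and 13 in WT. In contrast fabp2 had 3399 reads in the knockout and 3702 in WT, slc5a1 had 42 in each, and the highest anpep row had 315 and 236. Of that list 8 of 16 rows were measured. Among these 8, 0 were called and 1 was above 0, where 11.8% and 49.8% of all genes were. The list summed to 4663 CPM in the knockout and 3402 CPM in WT. Its most abundant genes were apoa4b.1 and apoa4b.3, at 3751 and 435 CPM in the knockout and 2177 and 558 CPM in WT.

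Most measured paralogs of these steps were above 0, and 1 passed the rule. Of 21 rows, 14 were measured, and 11 of these had log2 ratios above 0, where 49.8% of all genes did. The median was 0.38, with 1 gene at least 2-fold higher and 0 lower, where 5.4% and 6.4% of all genes were. The higher gene was plpp1 (ENSDARG00000053381), a lipid phosphate phosphatase of the cell surface in mammals that also accepts phosphatidate, with 943 reads in the knockout and 240 in WT (1.44). The measured plpp2 and plpp3 rows, named after their values were seen, were at 0.83 and 0.58. The fold of lclat1, with nothing added, was 2.18 (1.61 to 2.99), but its log2 ratio of 0.96 was under the rule. Of the genes that move triglyceride into droplets none was called, and fitm2, which helps droplets to form, had 240 reads in the knockout and 231 in WT (-0.40). In that list, which also holds the lipin phosphatase genes, 5 of 8 rows were measured and 0 were called, where 11.8% of all genes were.

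The phospholipid branch had no common direction. Of 34 rows, 18 were measured, and 17 of these reached 1 CPM in WT. Among the 17, 2 were at least 2-fold higher and 2 lower, where 5.4% and 6.4% of all genes were. In these 17 rows 8 were above 0, where 49.8% of all genes were, and the median was -0.13. The shares of all genes are over genes measured in either library, a wider filter than that of the 17. Without the pseudocount, crls1 and a cept1 row (ENSDARG00000021177), named after their values were seen, were also past 2-fold lower. They were 2.05-fold lower (1.63 to 2.58) and 2.41-fold lower (1.39 to 4.28), in that order. In the ethanolamine route, pcyt2, the enzyme that limits phosphatidylethanolamine synthesis, had 2362 reads in the knockout and 561 in WT (1.57). The kinase one reaction earlier, etnk1 (ENSDARG00000019420), had 234 reads in the knockout and 447 in WT (-1.34), so consecutive enzymes differed in opposite directions. At the phosphatidate branch point, cds1, which makes CDP-diacylglycerol, had 146 reads in the knockout and 31 in WT (1.39). Its more abundant paralog cds2, named after its values were seen, had 254 reads in the knockout and 232 in WT (-0.33). Diacylglycerol kinase zeta, dgkz (ENSDARG00000014439), which turns diacylglycerol back into phosphatidate, had 88 reads in the knockout and 264 in WT (-1.85). In the choline route, chpt1, which joins choline phosphate to diacylglycerol, had 10119 reads in the knockout and 6428 in WT (0.17), and the kinase gene chkb had 1729 and 1449 (-0.23). Its cytidylyl transferase gene pcyt1bb, named after its values were seen, had 600 reads in the knockout and 810 in WT (-0.89), which is 1.89-fold lower and short of the rule.

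**Figure D4:**
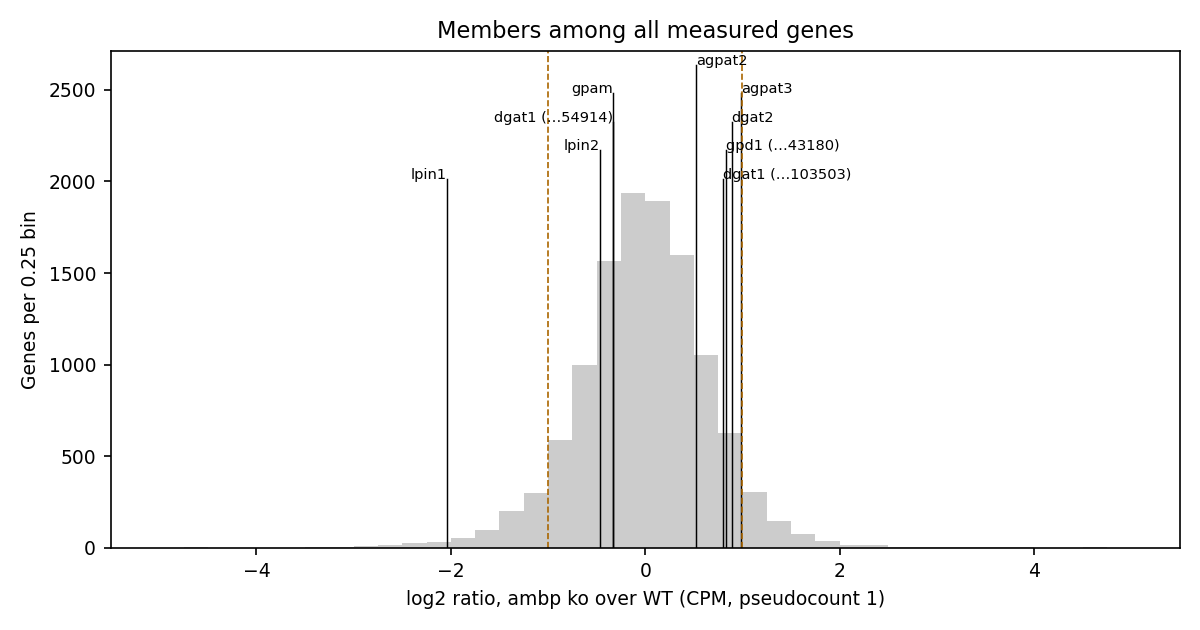
Number of genes per bin of 0.25 in log2 ratio (ambp ko over WT, CPM with a pseudocount of 1) for all 11634 measured genes, with a line at each measured member and dashed lines at 2-fold. Only lpin1, at -2.04, lies beyond a dashed line, and gpd1, agpat3, dgat2 and dgat1 ENSDARG00000103503 stand at 0.80 to 0.99.

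Calls on the higher side turned on the scaling. With library totals in place of TMM, 4 members were at least 2-fold higher, namely gpd1, agpat3, dgat2 and dgat1 ENSDARG00000103503, where 9.12% of all genes then were. Under this scaling the median over all genes was 0.22 and 68.8% of the called genes were higher, against a median of -0.0026 and a share of 45.8% with TMM. The lower call of lpin1 held under every scaling, pseudocount and filter tried and on FPKM, with log2 ratios from -2.05 to -1.57. No measured member changed its sign in any of these settings.

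**Figure D5:**
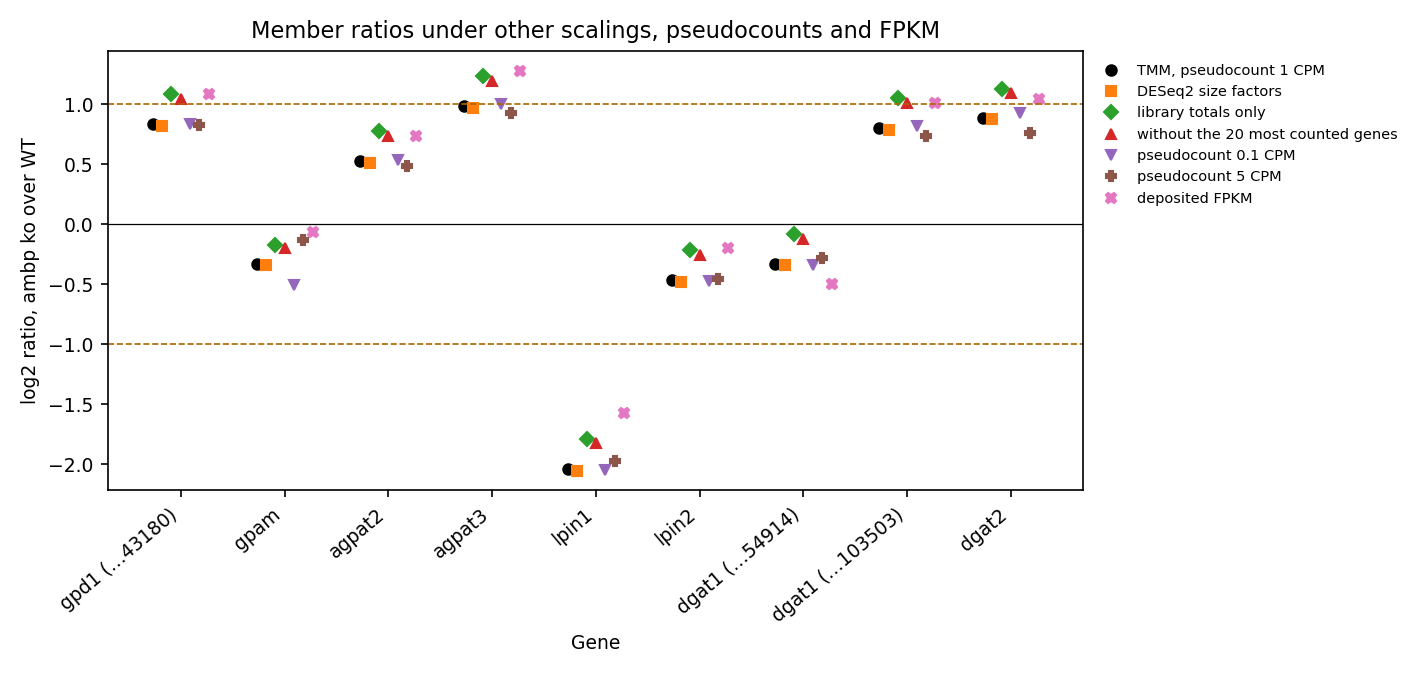
Log2 ratio (ambp ko over WT) of each measured member with TMM and a pseudocount of 1 CPM (black), with other scalings and pseudocounts, and with deposited FPKM plus 1. Dashed lines mark 2-fold. The 4 genes near 2-fold cross the upper line with library totals, without the 20 most counted genes and with FPKM, while lpin1 stays between -2.05 and -1.57.

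Markers of other cells differed between the libraries too, and their part in these results was not tested. Beside the counts below, 5.4% of all 11634 measured genes were at least 2-fold higher, 6.4% were lower and 49.8% were above 0. Those shares are over genes measured in either library, a wider filter than that of rows measured in WT. Exocrine pancreas genes had 11 of the 12 rows measured in WT at least 2-fold higher, with a summed level of 417 CPM in the knockout and 53.3 CPM in WT and with prss59.2 and prss59.1 the most abundant, at 98.7 and 63.3 CPM in the knockout and 5.37 and 5.16 CPM in WT. Macrophage genes had 6 of the 14 rows measured in WT at least 2-fold higher and all 14 above 0, with a summed level of 624 CPM in the knockout and 448 CPM in WT, led by an mfap4 row at 162 and 122 CPM and cd74a at 131 and 118 CPM. Erythroid genes had 0 of 6 above 0, summing to 214 CPM in the knockout and 391 CPM in WT, with hbaa1 at 187 and 351 CPM and alas2 at 8.58 and 14.5 CPM. In the adipocyte list, both adipoq rows, lepb and fabp4b had 0 reads in both libraries, and plin1 and lepa had 0 reads in the knockout and 1 in WT, while cidea had 25 and 35 and pparg 84 and 23. These genes were picked after their values were seen. The adipocyte list summed to 1114 CPM in the knockout and 2538 CPM in WT, nearly all from lpl, at 1049 and 2499 CPM, with cfd at 41.2 and 27.4 CPM. Of its 5 measured rows 1 was at least 2-fold higher, fabp4a with 382 reads in the knockout and 98 in WT, and 1 lower, lpl. Skeletal muscle genes had 0 of 9 rows measured, with actc1b at 6 reads in the knockout and 5 in WT and pvalb2 at 1 and 6.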

How the data were processed

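The authors deposited estimated counts per gene, named counts per the file headers, of which 6.01% in the knockout column and 5.45% in the WT column were not whole. FPKM columns, so named per the file headers, were deposited beside them. Per the submitters' processing notes, the tools were HISAT2 and featureCounts and the build GRCz11; no version is given there. Libraries were made from oligo(dT)-selected RNA with the NEBNext Ultra RNA kit, per the labels' protocols. All sample columns of the table were used. Estimated counts were rounded to whole numbers. Names came from an Ensembl name table, which matched 23499 of 25939 rows.

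TMM sizes came from edgeR 4.0.16 and the alternative size factors from DESeq2 1.42.0, in R 4.3.3. One read equalled 0.0499 CPM in the knockout and 0.0697 CPM in WT. Intervals, at 95%, are exact Poisson for levels, exact conditional binomial for folds, and conditional odds ratios for ratios of ratios (SciPy 1.17.1). The calculations were checked on simulated data. With 1 library per genotype no test was made, and no likeness of pattern between genes was computed. Named genes are all members, the called genes and the 2 most abundant of each other pathway list, the 2 most abundant of each marker list, and ambp; every other gene named was chosen after its values were seen. The members, lists and settings were chosen with earlier results of these data known.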

Additional observations from a re-analysis of the deposited data

How the results depend on the processing

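No paired analysis was possible because each genotype has 1 library, and for the same reason no replicate could be left out. Alternatives covered scaling, pseudocount, filter, size rule and unit, and 2 on the choice of rows were added after the data were seen. Members at least 2-fold higher numbered 4 with library totals, without the 20 most counted genes and with FPKM. Of all genes, 9.12%, 8.40% and 5.40% were at least 2-fold higher in these settings, in that order. With the 1.5-fold rule 4 members were at least 1.5-fold higher, where 16.4% of all genes were. In the remaining settings 0 members passed the rule upward. Members past the rule of each setting downward numbered 1 in all 12 settings. The member median was 0.77 with library totals, 0.735 without the 20 genes, 0.74 with FPKM, 0.070 with no filter, 0.099 without the gpd1 rows and 0.094 with rows by the deposited symbol column. Over all genes, 1071 were higher and 485 lower with library totals, 987 higher without the 20 genes, and 349 lower with FPKM. A pseudocount of 0.1 CPM gave 1279 higher and 1212 lower, and one of 5 CPM gave 151 higher and 319 lower. The filter at 10 CPM left 227 higher and 433 lower, the 1.5-fold rule called 1904 higher and 1971 lower, and the 4-fold rule 59 higher and 91 lower. Of the pathway rows outside the members, 37 of 63 were measured with TMM. Among these 37, 3 were higher and 2 lower, where 5.4% and 6.4% of all genes were. Higher rows numbered 6 with library totals, 6 without the 20 genes and 5 with FPKM, where 9.12%, 8.40% and 5.40% of all genes were. At 1.5-fold 7 were higher and 6 lower, where 16.4% of all genes were higher. At 4-fold 0 were higher and 0 lower, where 0.507% of all genes were higher. Lower rows numbered 1 with FPKM and 4 with 0.1 CPM, where 349 and 1212 of all genes were lower. A different rule, filter or set of rows counts different genes by its construction. Library totals in place of TMM raise the ratios of all measured genes together, with a median over all genes of 0.22 against -0.0026. Otherwise the cause was not tested. Depth limits gpam, at 26 reads in the knockout and 27 in WT, and mogat2, at 1 and 0.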

Other observations

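Among transcription regulators of lipid synthesis, 11 of 14 rows were measured, but 3 of them passed only through the knockout library, where they were higher. Of the 8 that reached 1 CPM in WT, 6 had log2 ratios above 0, where 49.8% of all genes did. In these 8 genes 1 was at least 2-fold higher and 0 were lower, where 5.4% and 6.4% of all genes were, and the median was 0.56. Here too the shares of all genes are over genes measured in either library, not in WT alone. The coactivator gene ppargc1b had 295 reads in the knockout and 55 in WT (1.70). The carbohydrate-responsive factor gene mlxipl (ENSDARG00000089107) had 90 reads in the knockout and 13 in WT (1.53), from a level under 1 CPM in WT. The sterol-sensing gene insig2 had 23 reads in the knockout and 0 in WT. The most abundant regulators were nr1h3, the liver X receptor, with 1553 reads in the knockout and 805 in WT (0.46), and mlx, the partner of mlxipl, with 503 and 385 (-0.09). The coactivator ppargc1a, named after its values were seen as the partner of lpin1 in mammals, was not measured, with 10 reads in the knockout and 14 in WT.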
